A study of Mus musculus with 4 samples.

Results

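The 8 genes described here encode the enzyme crystallins of the mouse cornea and the aldehyde dehydrogenases related to them: Aldh3a1, Tkt, Aldh1a1, Aldh1a2, Aldh1a3, Aldh1a7, Aldh2 and Aldh3a2. They were chosen by name, and every probe set whose platform annotation gives exactly 1 of these symbols was taken. This gave 16 of the 45101 probe sets on the array and 8 of the 18193 genes with a probe set of their own. Aldh2 had 5 probe sets, Tkt and Aldh1a3 had 3 each, and the other 5 genes had 1 each.

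The arrays came from 2 groups, named here by what the labels give. The first group was transgenic mice that had the secreted glycoprotein myocilin expressed in their aqueous humor, the fluid of the front of the eye. The second was control mice, and tissue from both is named retina in the labels. Strain, age, sex, and the promoter that drives the transgene are not given in the sources used here, nor is whether animals were pooled. Each group had 2 arrays of total RNA. The second control array is labelled a technical replicate of the first, so control counts as 1 sample. The 2 transgenic arrays are taken as 2 samples, although nothing says that they came from separate animals. So p-values of the main fit rest on the spread between the 2 transgenic arrays, pooled with that of other probe sets. Part or all of this spread may be technical. The distance between the control arrays does not enter these p-values. The question behind the comparison, as the labels put it, is how the retina responds when much myocilin surrounds it.

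Corneal epithelial cells hold a few metabolic enzymes in amounts far above what catalysis seems to need, and by analogy with the lens these are called corneal or enzyme crystallins. In the mouse the most abundant are ALDH3A1, which oxidises the medium-chain aldehydes that lipid peroxidation leaves behind and absorbs ultraviolet light, and transketolase, the enzyme of the non-oxidative pentose phosphate pathway encoded by Tkt. The ALDH1A enzymes form a separate branch, which oxidises retinaldehyde to retinoic acid and patterns the developing eye. ALDH2 clears acetaldehyde in mitochondria, and ALDH3A2 oxidises long-chain fatty aldehydes in the endoplasmic reticulum.

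Signals are the linear intensities deposited for each probe set, on a scale where the mean of each array after trimming 2% of probe sets at each end was 150. The highest signal on an array lay between 15357 and 18994. Differences between groups are given as log2(signal + 16), transgenic minus control, which understates the difference of dim probe sets. Brightness also depends on the probes themselves, so no signal is ranked against that of another gene. The labelled tissue was checked against marker lists. All 10 corneal epithelium genes exceeded 150 on every array, and so did all 10 skeletal muscle genes and all 7 genes of keratocytes, the cells of the corneal stroma. Of 10 rod and cone genes with a probe set, 0 did, and Gnat1, the rod transducin subunit, had signals of 21.3 and 12.4 on the transgenic arrays and 14.3 and 33.5 on the control arrays. Of 8 Mueller glia genes, 5 exceeded 150 on every array, among them Glul and Rlbp1, which other tissues of the eye also express, and 9 of 11 genes of pigment epithelium and melanocytes did. Of 9 genes of retinal interneurons and ganglion cells with a probe set, 2 did. The markers that define photoreceptors were thus dim and those of the cornea bright on all 4 arrays, and the values below are of such mixed material. In tissue RNA of this kind, fewer cells of a type and less RNA per cell cannot be told apart.

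None of the 16 probe sets of the 8 genes passed the test for a difference between transgenic and control tissue (0 of 16 in limma, adjusted p under 0.05). Their adjusted p ran between 0.388 and 0.996, and 3 of the 16 (18.8%) had an unadjusted p under 0.05. Over all 27022 probe sets tested, 21 passed (0.0777%), and 7.06% had an unadjusted p under 0.05. All 16 were bright enough to be tested. The dimmest, Aldh2 probe set 1457155_at, averaged 35.3 on the transgenic arrays and 28.7 on the control arrays. These lie on either side of the signal of 30.0 required on average, so it entered the test only through its transgenic arrays. On 7 probe sets, this one among them, both transgenic arrays lay above both control arrays. On 5 both lay below, and on 4 the groups overlapped. Over all probe sets tested, 21.1% had both transgenic arrays above and 23.6% had both below. Groups did not overlap for 75.0% of the 16, with 1457155_at included, against 44.7% of all. Probe sets of a gene share their transcript and are not independent. Taking the brightest probe set of each gene, the median difference of the 8 was 0.11, between −0.43 for Aldh1a3 and 0.17 for Aldh1a2, and the median over all probe sets tested was −0.02. These medians are of unlike brightness, since the second takes in many dim probe sets. As deposited, tested probe sets with a mean signal above 5000 had a median difference of 0.20.

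**Figure D1:**
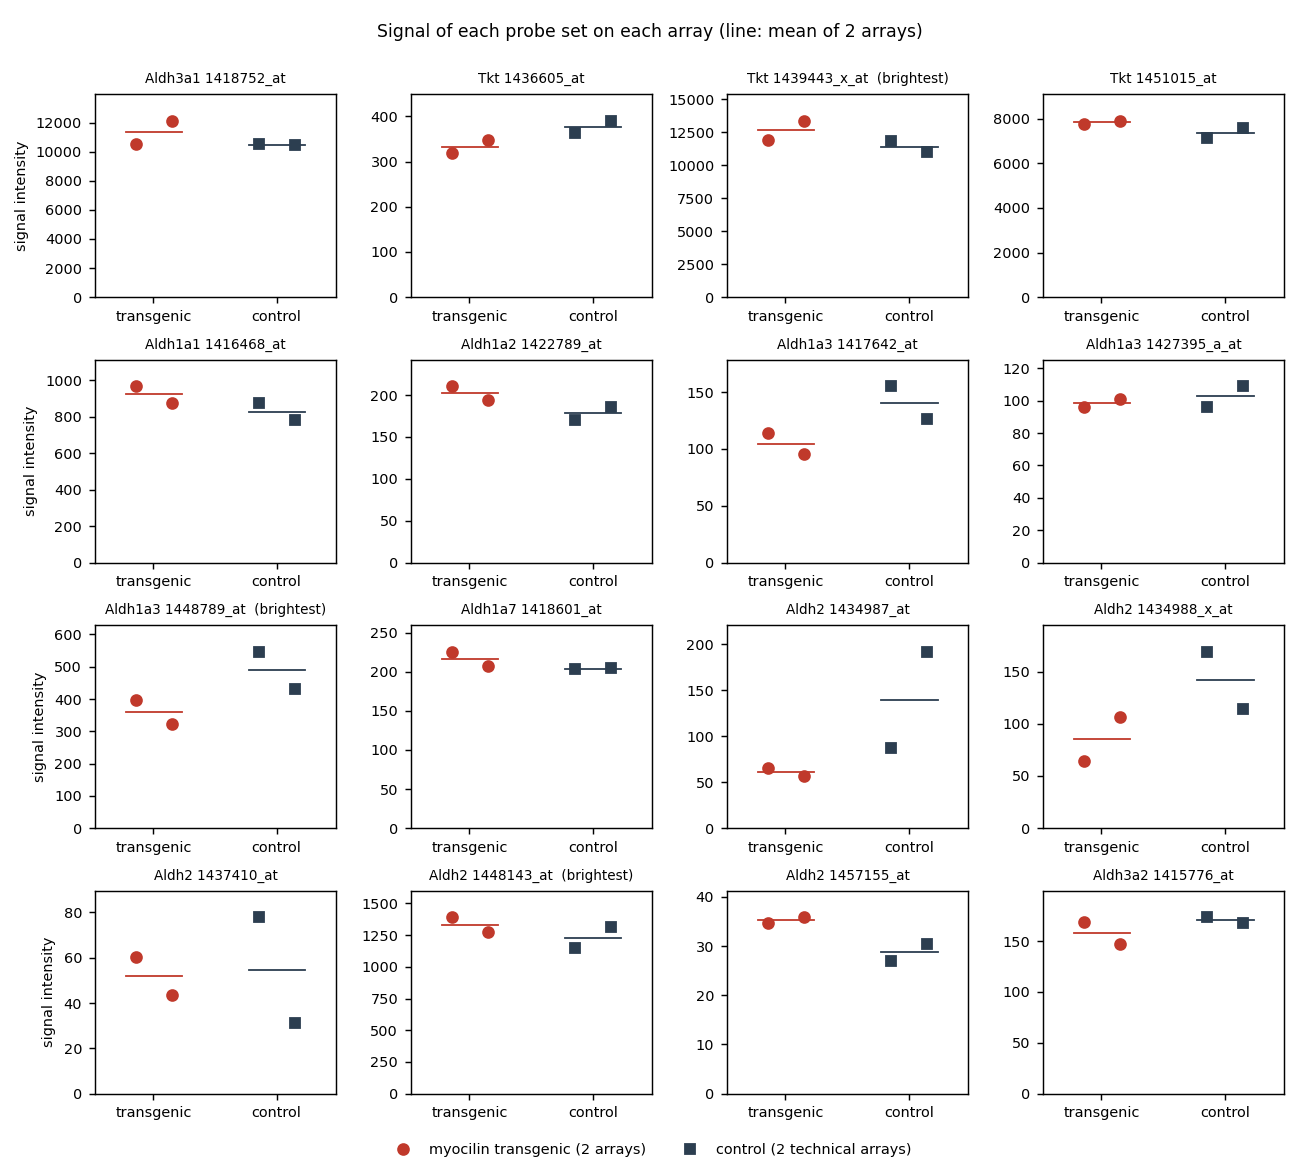
Signal intensity (vertical axis, linear and starting at 0) of the 16 probe sets on the 2 myocilin transgenic arrays (red circles, left) and the 2 control arrays (dark squares, right), with a line at the mean of each pair. Aldh3a1 lies between 10439 and 12158, and the 2 control arrays of Aldh2 probe set 1434987_at stand at 87.3 and 192.

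Aldh3a1, the leading corneal crystallin gene, gave a signal of 10541 and 12158 on the transgenic arrays, against 10523 and 10439 on the control arrays. The first transgenic array lay close to both control arrays, and the second stood above all the others. The means were 11349 ± 1143 (SD, n = 2) in transgenic samples and 10481 in the control sample, a difference of 0.11 ± 0.10 (log2, SE) with a limma adjusted p of 0.907. The 95% interval of the fold ran from 0.923 to 1.26. The log2 distance between the 2 transgenic arrays, 0.21, was larger than the difference between the groups. Without the second transgenic array the difference was 0.01, and without the first it was 0.21.

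Tkt, which moves 2-carbon units between sugar phosphates, was read by 3 probe sets that did not run the same way. On the brightest, 1439443_x_at, the signal was 11880.3 and 13377 on the transgenic arrays and 11804 and 11009 on the control arrays. Its suffix marks a probe set with probes that may match other sequences as well. Here the transgenic arrays lay above the control arrays, the first of them narrowly, with a difference of 0.14 ± 0.10 (log2, SE; limma adjusted p = 0.843). Probe set 1451015_at gave 7749 and 7926 on the transgenic arrays and 7152 and 7611 on the control arrays. Its difference, 0.09 ± 0.09 (adjusted p = 0.923), was 0.087 before rounding, just under the log2 distance of 0.089 between the technical control arrays. The dimmest, 1436605_at, gave 318 and 348 on the transgenic arrays and 364 and 391 on the control arrays, with the transgenic arrays below and a difference of −0.17 ± 0.15 (adjusted p = 0.891). The intervals of the fold were 0.951 to 1.28, 0.925 to 1.22 and 0.710 to 1.11 in the order given.

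The small positive differences of Aldh3a1 and of the 2 bright Tkt probe sets depended on how the arrays were scaled. After quantile normalization they stood at −0.09 for Aldh3a1, −0.06 for 1439443_x_at and −0.09 for 1451015_at, with adjusted p between 0.851 and 0.926. As deposited, the 276 tested probe sets with a mean signal above 5000 had a median difference of 0.20, so all 3 lay under the median of probe sets of this brightness. After quantile normalization that median was 0.02, and the 3 probe sets lay under it as well. No test was made of this position.

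**Figure D2:**
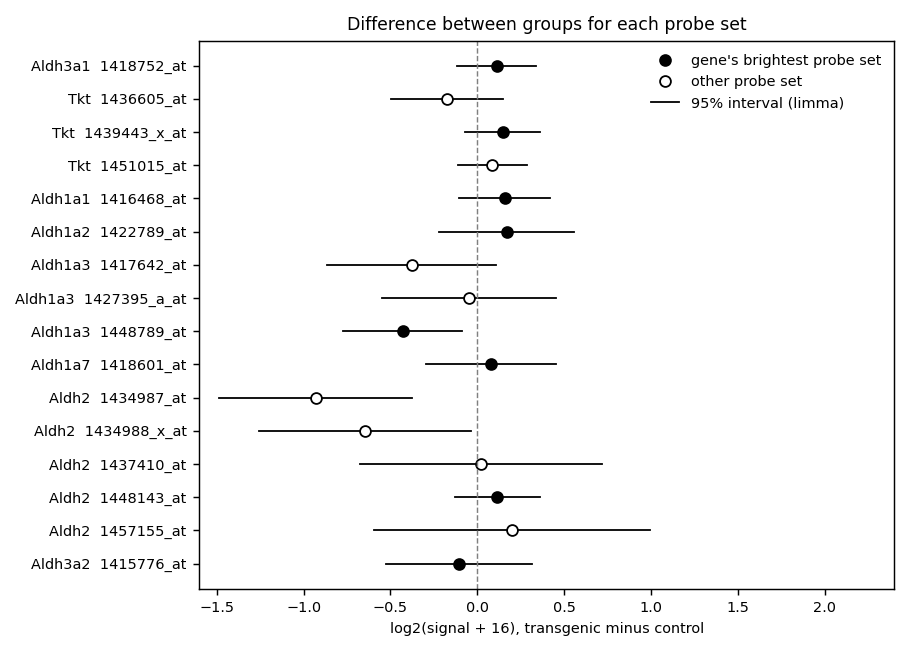
Difference in log2(signal + 16), myocilin transgenic minus control (horizontal axis), for each probe set, with its 95% interval from limma. Filled circles are the brightest probe set of a gene and open circles the others. The intervals of Aldh1a3 1448789_at and of Aldh2 1434987_at and 1434988_x_at lie below 0, before any adjustment for the number of probe sets tested.

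Of the retinoic acid producing enzymes, Aldh1a1, the form found in the dorsal retina and in many epithelia, had signals of 969 and 878 on the transgenic arrays and 873 and 781 on the control arrays. The lower transgenic array and the higher control array nearly met. The difference of 0.16 ± 0.12 (log2, SE; limma adjusted p = 0.871) was about as large as the log2 distance of 0.16 between the control arrays. Aldh1a7, a rodent gene closely related to Aldh1a1, lies next to it in the mouse genome, with 0 protein-coding genes between them in the RefSeq annotation. It gave 226 and 207 on the transgenic arrays and 203 and 205 on the control arrays, a difference of 0.08 ± 0.17 (adjusted p = 0.975). Whether transcripts of one of these genes also bind probes of the other was not tested.

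Aldh1a2, which makes retinoic acid in the embryo and in the choroid and sclera of the growing eye, gave 211 and 194 on the transgenic arrays and 170.4 and 186 on the control arrays. The groups did not overlap, and the difference of 0.17 ± 0.18 (log2, SE) had a limma adjusted p of 0.923. It was the highest value among the brightest probe sets of the 8 genes, and its interval of the fold ran from 0.859 to 1.47.

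Aldh1a3, the form of the ventral retina in the embryo, was the gene with the most negative value among the brightest probe sets. Probe set 1448789_at gave 395 and 322 on the transgenic arrays and 547 and 432 on the control arrays. Both transgenic arrays were below both control arrays. The difference was −0.43 ± 0.16 (log2, SE), a fold of 0.742 with a 95% interval from 0.586 to 0.941. Its unadjusted p was 0.0183 and its limma adjusted p was 0.588. The control arrays, which are technical replicates, differed from each other by 0.33 on the same scale and the transgenic arrays by 0.28. The value without the first control array was −0.27, and without the second it was −0.60.

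A second Aldh1a3 probe set, 1417642_at, put the 4 arrays in the same order, with 114 and 95.2 on the transgenic arrays and 155 and 126 on the control arrays. Its difference was −0.38 ± 0.22 (log2, SE; limma adjusted p = 0.805). The platform annotation gives both of these probe sets the same source sequence, so they are not taken as separate readings of the gene. Whether they share probes was not checked. The remaining probe set, 1427395_a_at, comes from another source sequence and gave 96.0 and 101 on the transgenic arrays against 96.4 and 109 on the control arrays. There the groups overlapped, and the difference was −0.05 ± 0.23 (adjusted p = 0.993).

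Aldh2, the mitochondrial acetaldehyde dehydrogenase, had the widest disagreement among its probe sets. The brightest, 1448143_at, gave 1392 and 1271 on the transgenic arrays and 1147 and 1314 on the control arrays. The groups overlapped, with a difference of 0.11 ± 0.11 (log2, SE; limma adjusted p = 0.915) and an interval of the fold from 0.914 to 1.28. The pair of dimmer probe sets that follow pointed the other way. Probe set 1434987_at gave 65.3 and 56.6 on the transgenic arrays and 87.3 and 192 on the control arrays. It had the lowest p of all 16, with a difference of −0.93 ± 0.25, an unadjusted p of 0.00356 and an adjusted p of 0.388. The log2 distance between its technical control arrays, 1.01, was larger than that difference and does not enter its p. The value was −1.44 without the first control array and −0.43 without the second.

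Probe set 1434988_x_at of Aldh2 gave 63.97 and 106.61 on the transgenic arrays and 169.28 and 113.85 on the control arrays. Its difference was −0.65 ± 0.28 (log2, SE; limma adjusted p = 0.671), and the 2 transgenic arrays differed by 0.62. On this probe set the first control array was the higher one, whereas on 1434987_at the second was. The remaining probe sets, 1437410_at and 1457155_at, had signals below 80 on every array. For 1437410_at the difference was 0.02 ± 0.32, with an adjusted p of 0.996. Probe set 1457155_at gave 34.67 and 35.9 on the transgenic arrays and 26.95 and 30.47 on the control arrays. It entered the test only through its transgenic arrays.

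Aldh3a2, the fatty aldehyde dehydrogenase, lies beside Aldh3a1, again with 0 protein-coding genes between the pair. Its signals were 168 and 148 on the transgenic arrays and 174 and 168 on the control arrays. The higher transgenic array lay between the control arrays. The difference was −0.11 ± 0.19 (log2, SE), with a limma adjusted p of 0.966 and an interval of the fold from 0.694 to 1.24.

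**Figure D3:**
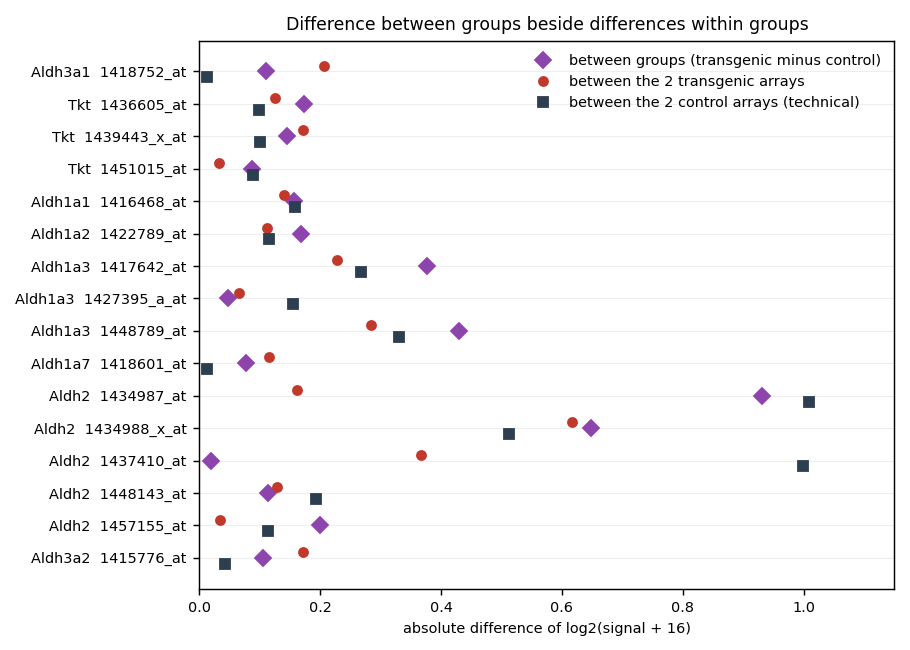
Absolute difference in log2(signal + 16) for each probe set: between the groups (purple diamonds, transgenic minus control), between the 2 transgenic arrays (red circles) and between the 2 technical control arrays (dark squares). On 6 of the 16 probe sets the technical control arrays lie further apart than the groups, among them Aldh2 1434987_at at 1.01 against 0.93. No such count was made over all probe sets tested.

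For 6 of the 16 probe sets, the technical control arrays differed by more than the groups did. This count was not made over all probe sets tested, so it cannot be called particular to these genes. Of these, 3 belong to Aldh2, with distances between control arrays of 1.01 for 1434987_at, 1.00 for 1437410_at and 0.19 for 1448143_at. The others were Aldh1a1, Tkt 1451015_at and Aldh1a3 1427395_a_at. Over all probe sets tested, log2 differences had an SD of 0.32 between the transgenic arrays and 0.30 between the control arrays, pooled over probe sets of every brightness.

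Genes of the pathways around these enzymes were taken from lists chosen by function. Of 13 other aldehyde dehydrogenase genes, 11 were tested and 0 passed in limma in either direction, with 0 at an unadjusted p under 0.05. Of the 11, 6 were above 0 and 5 below, with a median difference of 0.02. The largest values were −0.36 ± 0.34 for Aldh3b1, 0.27 ± 0.26 for Aldh16a1, −0.25 ± 0.23 for Aldh4a1, the mitochondrial enzyme of proline breakdown, and −0.23 ± 0.29 for Aldh1l2, a mitochondrial enzyme of folate metabolism (log2, SE).

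In the pentose phosphate list, to which transketolase belongs by function, 9 of 10 genes had a probe set and 6 were tested. None passed (0 of 6 in limma, with 0 at an unadjusted p under 0.05), and the median was −0.02, with 3 above and 3 below 0. Rpia, the isomerase that makes ribose 5-phosphate, gave 363 and 309 on the transgenic arrays and 385 and 439 on the control arrays, a difference of −0.28 ± 0.15 (log2, SE; adjusted p = 0.782). Pgd, the second dehydrogenase of the oxidative branch, stood at −0.23 ± 0.12, Rpe, an epimerase, at 0.21 ± 0.14 and Taldo1, transaldolase, at −0.04 ± 0.10. Tktl1 and Tktl2, the transketolase-like genes, had signals under 25 on every array on their brightest probe sets and were not tested.

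Retinoic acid genes, those that supply retinaldehyde, bind retinoids, break down retinoic acid or encode its receptors, numbered 14 with a probe set of 17, of which 11 were tested. In limma 0 passed and 2 had an unadjusted p under 0.05, with 6 above and 5 below 0 and a median of 0.04. Rxra, which encodes a partner of the retinoic acid receptors, gave 113 and 130.1 on the transgenic arrays and 181 and 165 on the control arrays, a difference of −0.46 ± 0.20 (log2, SE; adjusted p = 0.685). Rdh10, the dehydrogenase that supplies retinaldehyde to the ALDH1A enzymes, gave 596 and 648 on the transgenic arrays and 496 and 467 on the control arrays, a difference of 0.36 ± 0.13 (adjusted p = 0.579). Rarb stood at 0.22 ± 0.19 and Crabp2, a binding protein, at 0.20 ± 0.23. Cyp26a1, which degrades retinoic acid, gave 49.3 and 46.4 on the transgenic arrays and 19.2 and 13.5 on the control arrays, was too dim to be tested, and is given as values.

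Other enzymes that act on aldehydes and alcohols had 10 genes with a probe set of 13, and 9 tested. In limma 0 passed and 1 had an unadjusted p under 0.05, with 7 above and 2 below 0 and a median of 0.03. Adh5, the formaldehyde-clearing alcohol dehydrogenase, gave 1612 and 1592 on the transgenic arrays and 1283 and 1298 on the control arrays, a difference of 0.31 ± 0.10 (log2, SE; adjusted p = 0.535). The arrays of each group lay close together, and the groups did not overlap. Akr1a1, an aldehyde reductase, stood at 0.16 ± 0.10, Cbr3 at −0.13 ± 0.19 and Akr1b10 at 0.12 ± 0.19.

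**Figure D4:**
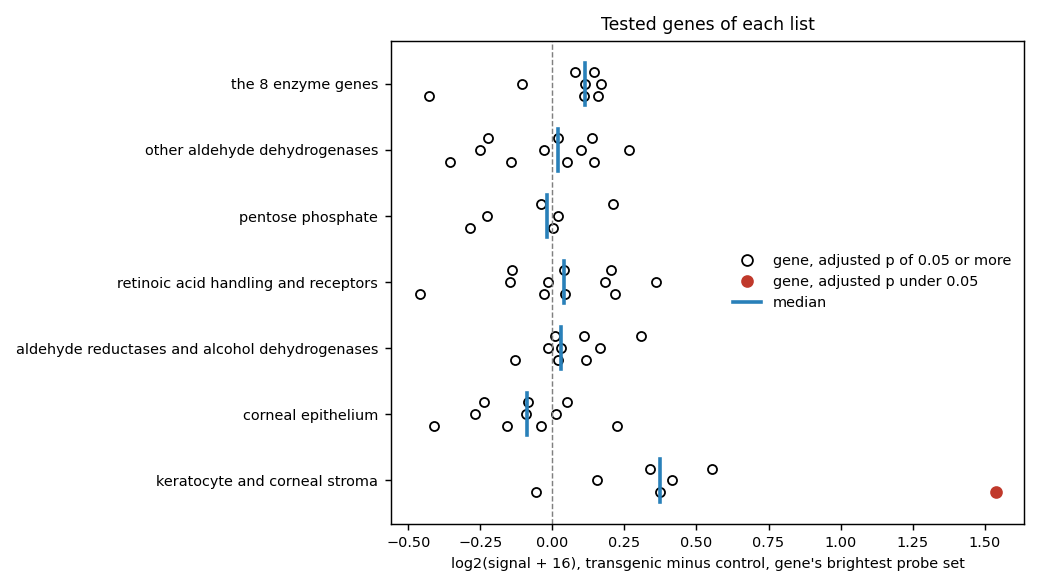
Difference in log2(signal + 16), myocilin transgenic minus control (horizontal axis), of the brightest probe set of each tested gene, by list, with the median of the list as a blue line. Red marks an adjusted p under 0.05, which only Kera of the keratocyte list has among the lists plotted. The median is 0.11 for the 8 enzyme genes and 0.38 for the keratocyte list.

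Markers of the cells that express these enzymes were measured on the same arrays. In the corneal epithelium list, 0 of 10 genes passed in limma and 3 had an unadjusted p under 0.05. The summed signal of its 10 genes was 46192 and 47596 on the transgenic arrays and 46654 and 46883 on the control arrays, and the median difference was −0.09, with 3 above and 7 below 0. Krt12, the keratin typical of this epithelium, stood at 0.22 ± 0.09 (log2, SE; adjusted p = 0.633), Krt5, a basal keratin, at 0.01 ± 0.10 and Pax6, the transcription factor of eye development, at −0.08 ± 0.10. The largest values were −0.41 ± 0.12 for Dsg1a, a desmosomal cadherin, −0.27 ± 0.11 for Upk1b and −0.24 ± 0.11 for Ehf, with adjusted p between 0.404 and 0.721. Aldh3a1 at 0.111 and the bright Tkt probe sets at 0.145 and 0.087 lay above every gene of this list except Krt12. This position was not tested.

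In the keratocyte list 1 of 7 genes passed. Kera, the gene of the stromal proteoglycan keratocan, rose by 1.54 ± 0.10 (log2, SE; limma adjusted p = 0.000286), and 5 of the 7 had an unadjusted p under 0.05. The summed signal of the 7 was 30444 and 31401 on the transgenic arrays and 24342 and 23440 on the control arrays, with a median of 0.38. Lum stood at 0.55 ± 0.10, Ogn at 0.42 ± 0.10 and Col5a2 at 0.38 ± 0.11. Some marker genes of other cell types passed as well. In the list of pigment epithelium and melanocytes 2 of 10 tested genes rose, Rpe65 by 1.24 and Rgr by 1.06, in the skeletal muscle list 3 of 10, Mb by 1.06, Myl1 by 1.00 and Mylpf by 0.87, and in the lens list 3 of 8. Those 3, Cryaa, Cryba1 and Crygb, averaged 101, 145 and 109.8 on the transgenic arrays and 13.6, 25.9 and 19.2 on the control arrays. Their control signals lay below the level of 30.0 required on average, so they entered the test only through the group where they were high, and no size of difference is given for them. Summed signals of the pigment list were 46694 and 50838 on the transgenic arrays and 39319.8 and 39466 on the control arrays. Those of the muscle list were 22138 and 21952 on the transgenic arrays and 13293 and 13548 on the control arrays. Those of the lens list were 3663.8 and 3600.1 on the transgenic arrays and 2604 and 2549 on the control arrays. Most of the lens sum came from Cryab, which did not pass. It gave 2819 and 2792 on the transgenic arrays and 2378 and 2250 on the control arrays. The part of these cell types in the values of the 8 enzyme genes was not tested.

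Among 22922 tested probe sets of other genes, those most like Aldh3a1 over the 4 arrays belonged to Prkar1a, Smim11 and 4833427F10Rik. Likeness is the root mean square difference of log2 values, each centred on its mean, and it was 0.0062, 0.0065 and 0.0090. Because of the centring it takes no account of brightness. Prkar1a averaged 57.5 on the transgenic arrays and 51.35 on the control arrays, and 4833427F10Rik 36.1 and 31.7, so both were dim. Smim11 averaged 462 and 424. Whether these genes are regulated together was not tested. For Tkt 1439443_x_at the nearest were Ypel5 at 0.0063, Fbxo21 at 0.0066 and Apex1 at 0.0072. Within a wider distance of 0.05 lay 469 probe sets for Aldh3a1 and 423 for Tkt.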

How the data were processed

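The authors deposited 1 linear signal intensity per probe set for 4 one-colour arrays of mouse eye tissue. The software, background correction and summarization behind these intensities are not given in the sources used here, and no genome build is named, so no positions are given. Names came from the annotation of the platform (34945 with 1 symbol, 932 with several, 9160 with none), and 64 array controls were left out. Intensities were used as deposited, since the trimmed means were equal, and taken as log2(signal + 16). The 2 control arrays were averaged. Those whose log2 value averaged above the 40th percentile (27022) entered a limma fit (version 3.58.1, R 4.3.3) with trended empirical Bayes moderation, two-sided tests and Benjamini-Hochberg adjustment over all of them. The fit had 1 residual and 10.3 prior degrees of freedom, with the spread of the single control sample taken to equal that of the transgenic ones. The number of arrays limits precision.

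The members, lists and tests were chosen with earlier results of these data known. All probe sets of the 8 genes are given. Of each other list, the text names genes past the threshold, the 4 largest differences among tested genes and leading markers, by the brightest probe set. For the lists of pigmented, muscle, lens, retinal and blood cells only genes past the threshold are named, apart from Glul, Rlbp1, Gnat1 and Cryab. Glul and Rlbp1 stand first in the Mueller glia list. Cyp26a1, Gnat1, Tktl1, Tktl2 and Cryab were named after their values were seen. Alternatives were other scalings, pseudocounts, filters, moderation, treatment of technical replicates and leaving out each array. The lists of Mueller glia, retinal interneurons and ganglion cells, rods and cones and red blood cells had 0 genes past the threshold in limma, with 3, 1, 1 and 1 at an unadjusted p under 0.05.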

Additional observations from a re-analysis of the deposited data

How the results depend on the processing

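In limma, the count of the 16 enzyme probe sets past the threshold was 0 under 11 of 12 alternatives that gave a test. With the replicate block it was 2, namely Aldh1a3 1448789_at (adjusted p = 0.00578) and Aldh2 1434987_at (0.00893). That block rests on a shared number alone. Over probe sets, the difference of control array 1 minus 2 correlated at 0.10 with that of transgenic array 1 minus 2. Of all probe sets tested, 21 passed, 71.4% of them higher. The count was 39 (51.3% higher) after quantile normalization, 56 (83.9% higher) after median centring, 135 with all 4 arrays as separate samples and 1740 with the replicate block. It was 0 in limma without the filter or without the intensity trend, where 2181 and 1059 had an unadjusted p under 0.05, and between 14 and 33 without 1 control array. Leaving out a transgenic array left no test. Alternatives that changed only the filter, the moderation or the treatment of technical replicates left every difference as in the main fit. Those could not change a sign, yet they count among the 224 recalculations of the enzyme probe sets. Differences changed sign in 7 of the 224, none of them past the threshold. Under quantile normalization these were Aldh3a1 at −0.087, Tkt 1439443_x_at at −0.056 and Tkt 1451015_at at −0.090. The others were Aldh1a3 1427395_a_at at 0.029 without control replicate 2 (−0.126 without control replicate 1), and Aldh2 1437410_at at −0.006 with a pseudocount of 64, −0.479 without control replicate 2 (0.519 without control replicate 1) and −0.163 without myocilin transgenic replicate 1. The causes were not tested. Dim probe sets, such as those of Aldh2 under a signal of 200, limit what 4 arrays can show.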
